A study of Mus musculus with 6 samples.

Results

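The genes of cholesterol and fatty acid synthesis were examined in splenic CD8+ T cells, the cytotoxic lymphocytes of the spleen. The 34 genes were listed by name, with earlier results of these data known, and all 34 were found among the 28773 gene IDs of the files. They hold 19 enzymes of the sterol route, 4 genes of its control and of sterol transfer, 8 enzymes of fatty acid synthesis, desaturation and elongation, and 3 genes of the liver X receptor (LXR) and of cholesterol export.

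Cells make cholesterol from acetyl-CoA through the mevalonate arm, which ends in farnesyl diphosphate, and then through squalene and lanosterol. Fatty acids are built from the same acetyl-CoA by acetyl-CoA carboxylase and fatty acid synthase, then given double bonds by desaturases and lengthened by elongases. Low sterol in the endoplasmic reticulum releases the transcription factors SREBP1 and SREBP2, which drive both routes, while oxysterols activate LXR, which drives cholesterol export and some lipogenic genes, and in T cells these programs are known to serve membrane growth during division.

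The cells came from tumor-bearing female mice whose tumor was treated by microwave ablation (MWA), which destroys tumor tissue by heat. After ablation the MWA+PBS group (samples 1 to 3) was injected with PBS, and the MWA+2DG group (samples 4 to 6) with 2-deoxy-D-glucose (2DG), a glucose analogue that interferes with glycolysis. The injections had ended before the spleens were taken on day 35 after tumor implantation, and CD8+ T cells were then separated with an isolation kit. All 6 samples thus carried an ablated tumor, and neither an untreated group nor one given 2DG alone was analysed here. The study's methods list wild-type BALB/c and C57BL/6 females, all young except an older control group for long-term survivors, but do not state which strain or tumor line gave these 6 samples, nor whether a sample is 1 mouse or a pool, so p-values measure only the spread between these samples.

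Expression was measured by RNA sequencing and is given in FPKM, a fragment count corrected for transcript length and library size, as deposited. Each sample held 22414 to 23340 genes above 0 and 12198 to 12515 genes of at least 1 FPKM, and the depth behind these values is unknown. The limma test on log2(FPKM + 1), which understates changes of low genes, covered the 12444 genes with a mean of at least 1 FPKM, and a gene was called where its Benjamini-Hochberg adjusted p over all of them was under 0.05. Of these genes 39.4% were called, 22.3% higher and 17.1% lower in MWA+2DG, with a median log2 difference of 0.05. The mitochondrial share of the summed FPKM ran from 21.41% to 22.84% in MWA+PBS and lay between 19.41% and 20.74% in MWA+2DG. As a check of the cell type, Cd8a, a chain of the CD8 coreceptor, was 229.51, 239.27 and 225.8 FPKM in the MWA+PBS samples and 363.14, 358.98 and 377.07 FPKM in the MWA+2DG samples.

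RNA of other cell types differed strongly between the groups. The summed level of 15 macrophage markers ran from 979.5 to 1066 FPKM in the MWA+PBS samples and from 143.7 to 152.4 FPKM in the MWA+2DG samples, and all 15 were called lower. The 8 erythroid markers found were all lower, their sum falling from between 217.4 and 251.0 FPKM to between 47.79 and 64.67 FPKM. Of 18 proliferation genes 17 were lower, with sums of 267.5 to 291.6 and of 181.7 to 191.1 FPKM. In the other direction, 10 of 14 neutrophil markers were higher and 3, Elane, Mpo and Prtn3, were lower, and the summed level was 369.1 to 408.7 FPKM in the MWA+PBS samples and 1628 to 1809 FPKM in the MWA+2DG samples. All 9 B cell markers were higher, from sums of 10.61 to 11.82 FPKM to sums of 58.03 to 63.27 FPKM, and 15 of 18 T lineage genes were higher and 1 lower, from sums of 1530 to 1601 FPKM to sums of 2093 to 2234 FPKM. The 8 dendritic cell markers had sums of 9.28 to 11.19 and 4.04 to 5.06 FPKM, and the defining markers Xcr1, Clec9a, Siglech, Zbtb46, Cd209a and Batf3 stayed under 1 FPKM on average in both groups. Batf3 and the B cell marker Fcer2a were each listed at 0 in 1 sample. Of the markers called, 3 of neutrophils, 5 of B cells and 5 of erythroid cells had passed the filter only through the group where they were high, so those 3 counts rest in part on the filter. The part of these cells in the results that follow was not tested, and in such bulk samples fewer cells of a type and less RNA per cell cannot be told apart.

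**Figure D1:**
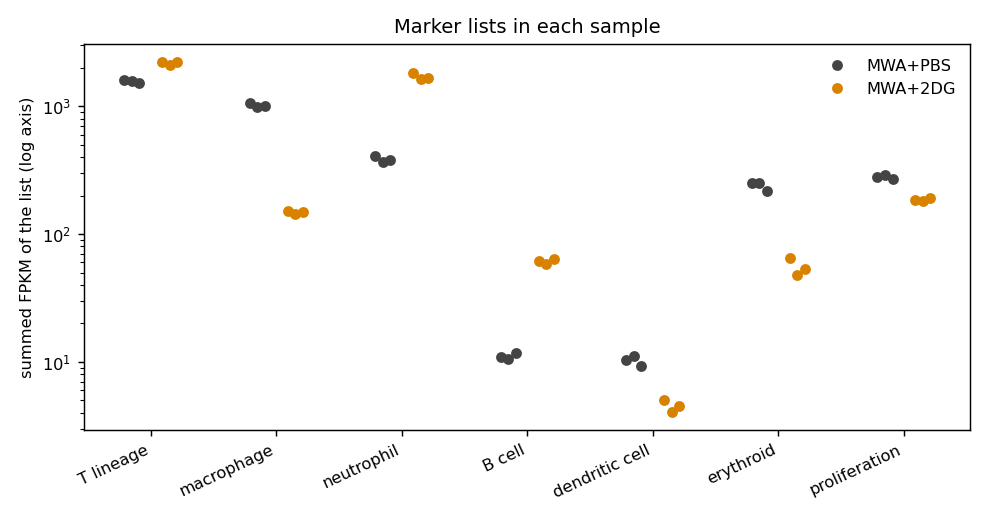
Summed FPKM (log axis) of 7 marker lists in each of the 6 samples, with MWA+PBS and MWA+2DG as separate points. The macrophage sums lie between 979.5 and 1066 FPKM in the MWA+PBS samples and between 143.7 and 152.4 FPKM in the MWA+2DG samples, and the neutrophil and B cell sums differ the other way.

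Enzymes of fatty acid synthesis and desaturation were mostly lower in MWA+2DG, with 1 large exception, while most sterol enzymes were not called. Of the 34 genes 11 were called (32.4%, against the 39.4% of all genes tested), 4 higher and 7 lower. The called genes were Scd1, Msmo1, Hsd17b7 and Sc5d on the higher side, where Scd1 had passed the filter only through MWA+2DG, and Fads2, Elovl5, Fads1, Acaca, Scd2, Abca1 and Srebf2 on the lower side. By the study's rule for differential genes, an unadjusted P under 0.05 with a log2 difference beyond 0.25, the same 11 passed, where 38.2% of all genes did. The median log2 difference was -0.09 over the 34 genes. All 34 passed the filter, at mean levels from 1.03 FPKM for Tm7sf2 to 55.4 FPKM for Lbr and a median of 5.26 FPKM, against a median of 6.58 FPKM over all genes tested. Tm7sf2 reached the filter only through MWA+PBS.

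**Figure D2:**
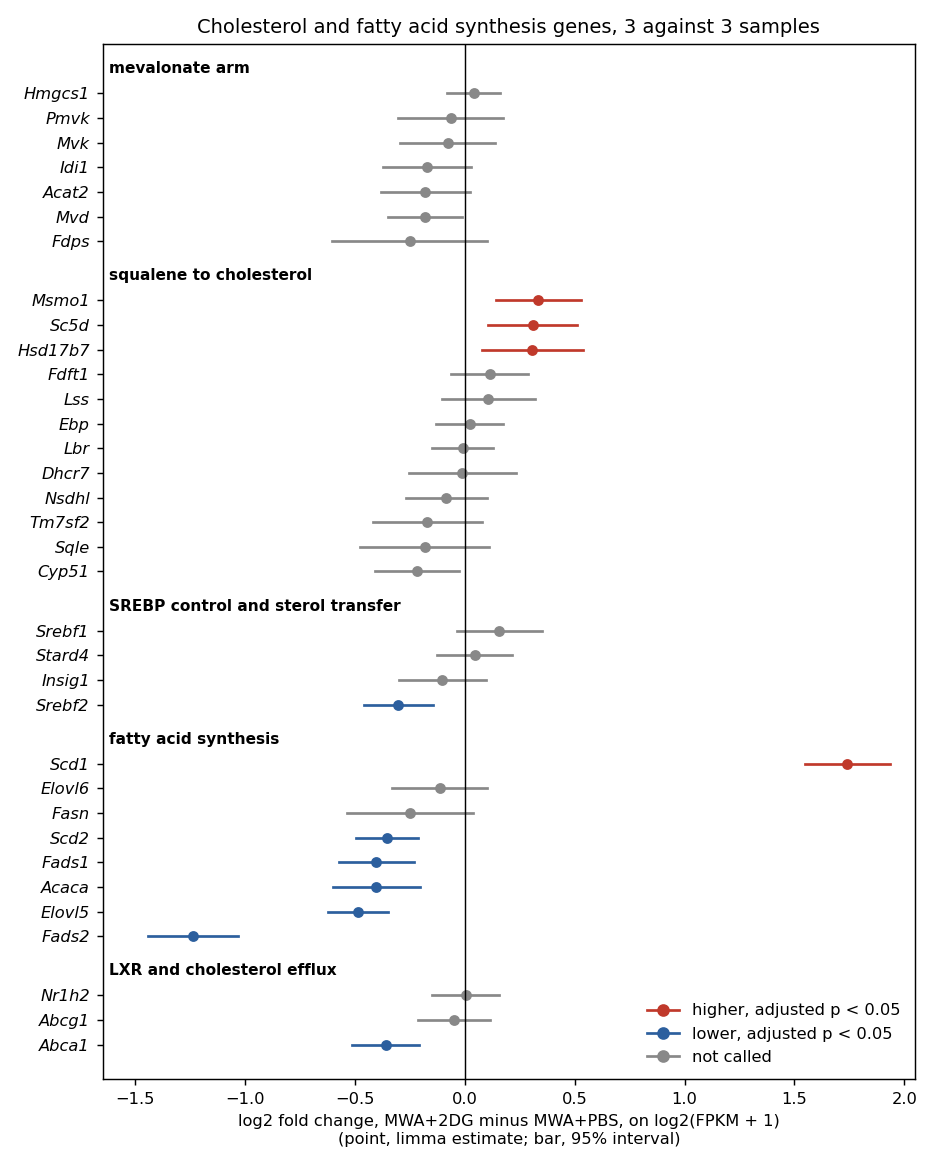
Log2 difference of each of the 34 genes, MWA+2DG minus MWA+PBS on the log2(FPKM + 1) scale, grouped by role, with points for the estimate and bars for the 95% limma interval. Scd1 stands at 1.74 and Fads2 at -1.24, and the other genes lie between -0.49 and 0.33.

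Among the 8 fatty acid genes 6 were called (75.0%, against 39.4% of all genes tested), 1 higher (22.3% of all genes) and 5 lower (17.1% of all genes), with a median log2 difference of -0.38. The higher one, Scd1, passed the filter only through MWA+2DG, where it is high. The share of 75.0% thus rests in part on the filter, while the 5 lower calls do not. Their summed level was 133.8, 125.2 and 135.7 FPKM in the MWA+PBS samples and 101.2, 101.6 and 100.1 FPKM in the MWA+2DG samples. Every MWA+2DG sample was thus below every MWA+PBS sample, with a ratio of means of 0.767.

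Scd1 and Scd2 encode stearoyl-CoA desaturases, which place the first double bond into saturated fatty acids, and they moved in opposite directions. Scd1 (ENSMUSG00000037071) was 0.58, 0.72 and 0.57 FPKM in the MWA+PBS samples and 4.48, 4.54 and 4.25 FPKM in the MWA+2DG samples. The groups lay far apart relative to their spread, 0.623 ± 0.0839 against 4.42 ± 0.153 FPKM (SD, n = 3 each), a 7.1-fold higher mean with a log2 difference of 1.74 ± 0.08 (SE). Since Scd1 passed the filter only through the group where it is high, its p is given from the fit of all 28773 genes with no filter (limma adjusted p = 0.000252). Scd2 (ENSMUSG00000025203) was 24.07, 22.64 and 23.93 FPKM in the MWA+PBS samples and 18.28, 19.22 and 17.13 FPKM in the MWA+2DG samples. Its groups did not overlap either, at 23.6 ± 0.788 and 18.2 ± 1.05 FPKM, and the log2 difference was -0.35 ± 0.06 (limma adjusted p = 0.00304).

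Scd2 remained the more abundant desaturase in all 6 samples. The ratio of Scd2 to Scd1, both per length, was 41.5, 31.4 and 42.0 in MWA+PBS and 4.08, 4.23 and 4.03 in MWA+2DG. Scd1 therefore made up 2.35%, 3.08% and 2.33% of the sum of both in MWA+PBS and 19.7%, 19.1% and 19.9% in MWA+2DG. The sum itself ranged from 23.4 to 24.6 FPKM in the MWA+PBS samples and from 21.4 to 23.8 FPKM in the MWA+2DG samples, so the sums overlapped while the shares did not. The transcripts of both genes share a stretch of 623 aligned bases at 95.5% identity, and the sources used here do not say how its reads were assigned.

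**Figure D3:**
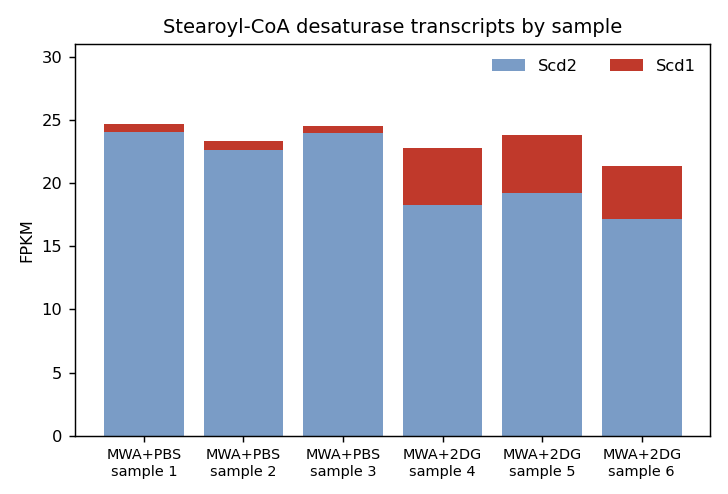
FPKM of Scd2 (lower part of each bar) and Scd1 (stacked on top) in each of the 6 samples, 1 bar per sample. Scd1 sits between 0.57 and 0.72 FPKM in the MWA+PBS samples and between 4.25 and 4.54 FPKM in the MWA+2DG samples, while Scd2 sits between 22.64 and 24.07 and between 17.13 and 19.22 FPKM.

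The desaturases of polyunsaturated fatty acids were both lower. Fads2 (ENSMUSG00000024665), which catalyses the first desaturation of linoleic and linolenic acid, was 4.47, 3.81 and 4.18 FPKM in the MWA+PBS samples and 1.24, 1.05 and 1.26 FPKM in the MWA+2DG samples. This was a 3.51-fold lower mean with no overlap, 4.15 ± 0.331 against 1.18 ± 0.116 FPKM, and a log2 difference of -1.24 ± 0.09 (limma adjusted p = 4.48e-05). Fads1 (ENSMUSG00000010663), which acts later in the same chain, was 10.36, 8.67 and 9.16 FPKM in the MWA+PBS samples and 6.7, 6.95 and 6.89 FPKM in the MWA+2DG samples. The lowest MWA+PBS sample was above the highest MWA+2DG sample, and the log2 difference was -0.40 ± 0.07 (limma adjusted p = 0.00416). The ratio of Fads1 to Fads2 was 2.32, 2.28 and 2.19 in MWA+PBS and 5.4, 6.62 and 5.47 in MWA+2DG, without overlap.

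Of the 2 elongases, only Elovl5 was called. Elovl5 (ENSMUSG00000032349), which lengthens polyunsaturated chains, was 60.45, 61.56 and 60.65 FPKM in the MWA+PBS samples and 43.99, 40.1 and 45.54 FPKM in the MWA+2DG samples. The tightly grouped MWA+PBS samples were all above the MWA+2DG samples, with a ratio of means of 0.71 and a log2 difference of -0.49 ± 0.06 (limma adjusted p = 0.000603). Elovl6, which lengthens saturated chains, was 3.56, 3.6 and 3.93 FPKM in the MWA+PBS samples and 3.02, 3.87 and 3.16 FPKM in the MWA+2DG samples. Its groups overlapped, and its log2 difference of -0.11 did not pass (limma adjusted p = 0.359).

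The enzymes of chain synthesis itself were Acaca and Fasn. Acaca (ENSMUSG00000020532), the acetyl-CoA carboxylase that commits carbon to fatty acids, was 4.16, 3.42 and 4.09 FPKM in the MWA+PBS samples and 2.71, 2.8 and 2.56 FPKM in the MWA+2DG samples. No sample crossed between the groups, and the log2 difference was -0.40 ± 0.09 (limma adjusted p = 0.00814). The predicted gene Gm5182 matches 6118 bases of Acaca transcript at 99.2% identity and was itself quantified at a mean of 2.04 FPKM in the MWA+PBS samples and 1.62 FPKM in the MWA+2DG samples, so reads could be split between both. Fasn, fatty acid synthase, was 26.2, 20.82 and 29.2 FPKM in the MWA+PBS samples and 20.81, 23.07 and 19.27 FPKM in the MWA+2DG samples. MWA+PBS sample 2 lay at the level of the MWA+2DG samples, and the log2 difference of -0.25 had an interval from -0.54 to 0.04 (limma adjusted p = 0.144), which became -0.38 without that sample (limma adjusted p = 0.0156) and -0.15 without MWA+PBS sample 3 (limma adjusted p = 0.368).

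**Figure D4:**
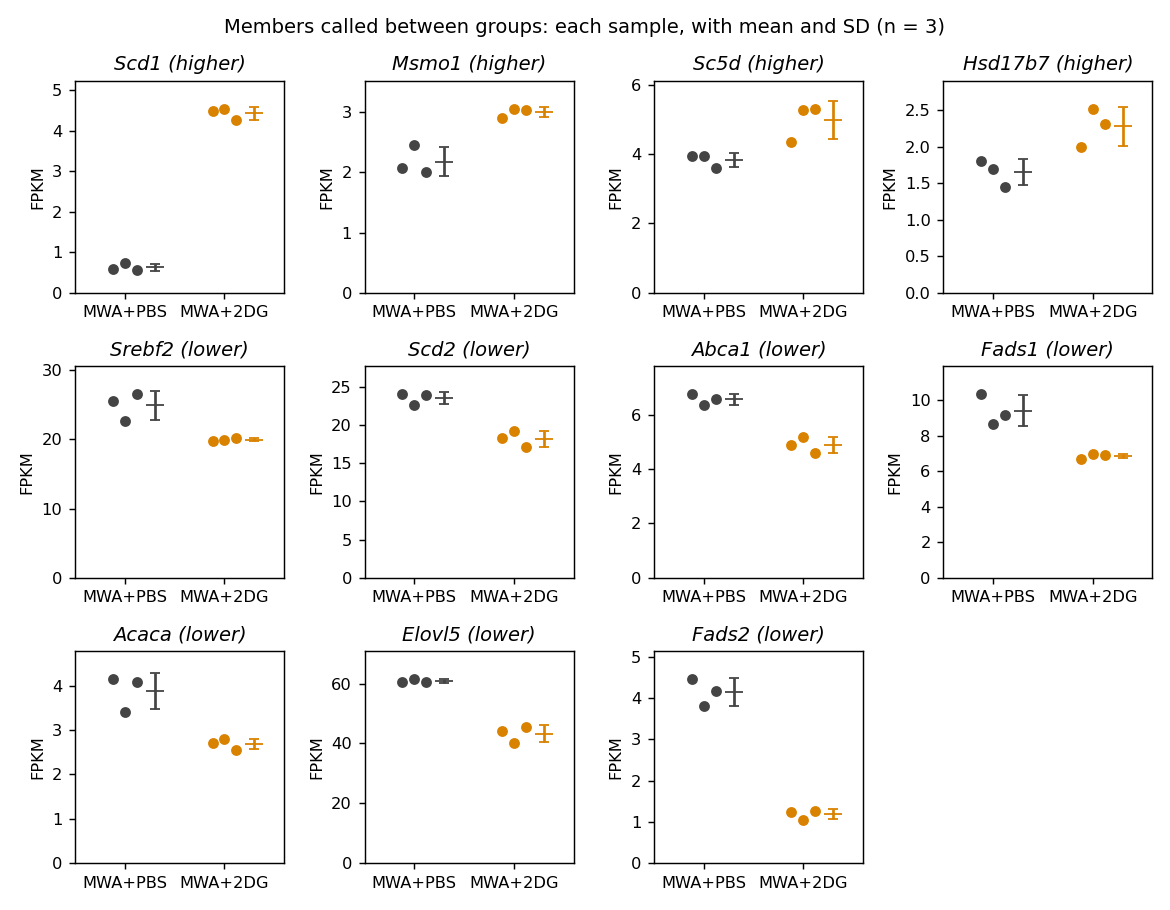
FPKM in each sample for the called genes, 1 panel per gene, with points for samples and a bar beside them for the mean and SD (n = 3). In each panel the MWA+PBS and MWA+2DG samples do not overlap. These genes were picked by their test in the same samples, so the separation adds no further support.

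Most enzymes of the sterol route were not called. Of the 19 enzymes 3 were called (15.8%, against 39.4% of all genes tested), all higher (22.3% of all genes), and the other 16 were not, with a median log2 difference of -0.07. The summed level of the 19 was 135.1 ± 0.416 FPKM in the MWA+PBS samples and 132.6 ± 3.27 FPKM in the MWA+2DG samples (SD, n = 3 each). Lbr alone had means of 55.6 and 55.2 FPKM, so these sums weigh it heavily. The 3 called enzymes act after lanosterol, on the methyl groups and double bonds of the sterol ring.

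Msmo1 (ENSMUSG00000031604), the methylsterol monooxygenase, was 2.08, 2.45 and 2.01 FPKM in the MWA+PBS samples and 2.91, 3.06 and 3.03 FPKM in the MWA+2DG samples. All MWA+2DG samples were above all MWA+PBS samples, with a ratio of means of 1.38 and a log2 difference of 0.33 ± 0.08 (limma adjusted p = 0.0159). Its transcripts share stretches of 151 to 203 bases at 95% identity or more with those of 56 other genes, at up to 33.3 FPKM, so its level is uncertain. Hsd17b7 (ENSMUSG00000026675), the sterol ketoreductase of the same demethylation, was 1.8, 1.69 and 1.45 FPKM in the MWA+PBS samples and 2.0, 2.52 and 2.31 FPKM in the MWA+2DG samples. The groups lay near each other without overlap, and the log2 difference was 0.31 ± 0.10 (limma adjusted p = 0.042). Sc5d (ENSMUSG00000032018), sterol desaturase, was 3.95, 3.94 and 3.59 FPKM in the MWA+PBS samples and 4.36, 5.29 and 5.32 FPKM in the MWA+2DG samples. MWA+2DG sample 4 was the lowest of its group but still above every MWA+PBS sample, and the log2 difference was 0.31 ± 0.09 (limma adjusted p = 0.0254). When samples were scaled to equal T lineage expression, the log2 differences of Msmo1, Hsd17b7 and Sc5d turned to -0.01, -0.04 and -0.03. That scaling subtracts the same amount from every gene, and the median of all tested genes moved from 0.05 to -0.30. The place of the 3 above that median was thus fixed by construction, and the scaling cannot test it. Without MWA+PBS sample 1, MWA+PBS sample 3 or MWA+2DG sample 6 none of the 3 was called, and without MWA+2DG sample 5 Msmo1 alone was.

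The 3 promoters are shown because these are the called sterol enzymes, beside those of Elovl5 and Fads2, which were lower, and of Hmgcs1, which holds the 1 sterol response element match among the genes. RefSeq promoters (build GRCm38.p6) were found for 26 of the 34 genes, and Abcg1, Fdft1, Fads1, Stard4, Sqle, Scd1, Scd2 and Fdps had none in the table. Each sequence is the 250 bases before an annotated start, read 5′ to 3′ on the gene's strand: Msmo1 chr8:64733579-64733828 (minus), Hsd17b7 chr1:169969206-169969455 (minus), Sc5d chr9:42264301-42264550 (minus), Elovl5 chr9:77917115-77917364 (plus), Fads2 chr19:10101504-10101753 (minus) and Hmgcs1 chr13:119690101-119690350 (plus). Capitals mark the CCAAT box, which NF-Y binds (CCAAT, or ATTGG on the other strand), the E-box (CACGTG) and the sterol response element (TCACNCCAC, either strand), and no marked matches overlap.
Msmo1: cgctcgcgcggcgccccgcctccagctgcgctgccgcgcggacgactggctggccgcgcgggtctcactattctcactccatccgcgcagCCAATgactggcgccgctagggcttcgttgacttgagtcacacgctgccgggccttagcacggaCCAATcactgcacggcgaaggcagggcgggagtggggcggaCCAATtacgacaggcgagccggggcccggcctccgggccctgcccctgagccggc
Hsd17b7: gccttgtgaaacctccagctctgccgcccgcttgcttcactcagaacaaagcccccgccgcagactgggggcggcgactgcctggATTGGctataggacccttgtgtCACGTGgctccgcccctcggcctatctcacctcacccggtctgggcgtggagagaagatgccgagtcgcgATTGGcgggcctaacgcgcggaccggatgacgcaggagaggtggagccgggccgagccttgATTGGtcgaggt
Sc5d: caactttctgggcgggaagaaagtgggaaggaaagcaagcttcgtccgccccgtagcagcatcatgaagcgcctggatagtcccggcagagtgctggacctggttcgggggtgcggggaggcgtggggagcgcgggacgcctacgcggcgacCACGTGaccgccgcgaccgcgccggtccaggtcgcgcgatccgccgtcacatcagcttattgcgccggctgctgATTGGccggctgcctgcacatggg
Elovl5: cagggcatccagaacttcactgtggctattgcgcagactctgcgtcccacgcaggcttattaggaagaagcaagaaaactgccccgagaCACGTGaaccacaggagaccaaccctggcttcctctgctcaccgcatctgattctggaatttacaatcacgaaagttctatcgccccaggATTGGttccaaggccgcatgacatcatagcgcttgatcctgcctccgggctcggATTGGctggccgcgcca
Fads2: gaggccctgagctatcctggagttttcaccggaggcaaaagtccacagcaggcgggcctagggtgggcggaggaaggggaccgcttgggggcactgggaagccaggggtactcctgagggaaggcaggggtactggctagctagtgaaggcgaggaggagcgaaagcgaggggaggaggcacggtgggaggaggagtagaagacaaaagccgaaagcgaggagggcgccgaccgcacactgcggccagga
Hmgcs1: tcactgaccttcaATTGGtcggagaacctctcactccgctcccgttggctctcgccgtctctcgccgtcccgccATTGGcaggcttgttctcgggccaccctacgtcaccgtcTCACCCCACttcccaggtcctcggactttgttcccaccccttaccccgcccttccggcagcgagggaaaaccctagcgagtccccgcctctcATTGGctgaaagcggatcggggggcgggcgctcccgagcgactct

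A CCAAT box was present in 20 of the 26 promoters (76.9%), against 37.5% of the promoters of all 27025 genes and 40.7% of those of tested genes. By role, 15 of 16 sterol enzymes had one, as did all 3 control genes with a promoter, 2 of 5 fatty acid genes and 0 of 2 LXR genes. The GC box (GGGCGG, either strand, not marked in the sequences) was also in 20 of 26 (76.9%), against 63.4% of tested genes, and by role in 15 of 16 sterol enzymes and 1 of 5 fatty acid genes. The E-box was in 6 of 26 (23.1%, against 10.2% of tested genes), namely Hsd17b7, Sc5d, Dhcr7, Insig1, Elovl5 and Abca1, of which 2 were higher, 2 were lower and 2 were not called. The sterol response element letters were in 1 of 26 (3.85%, against 1.17%), Hmgcs1. Fads2 carried none of the 3 marked motifs in this window. A match describes these letters and is not a measured binding site.

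**Figure D5:**
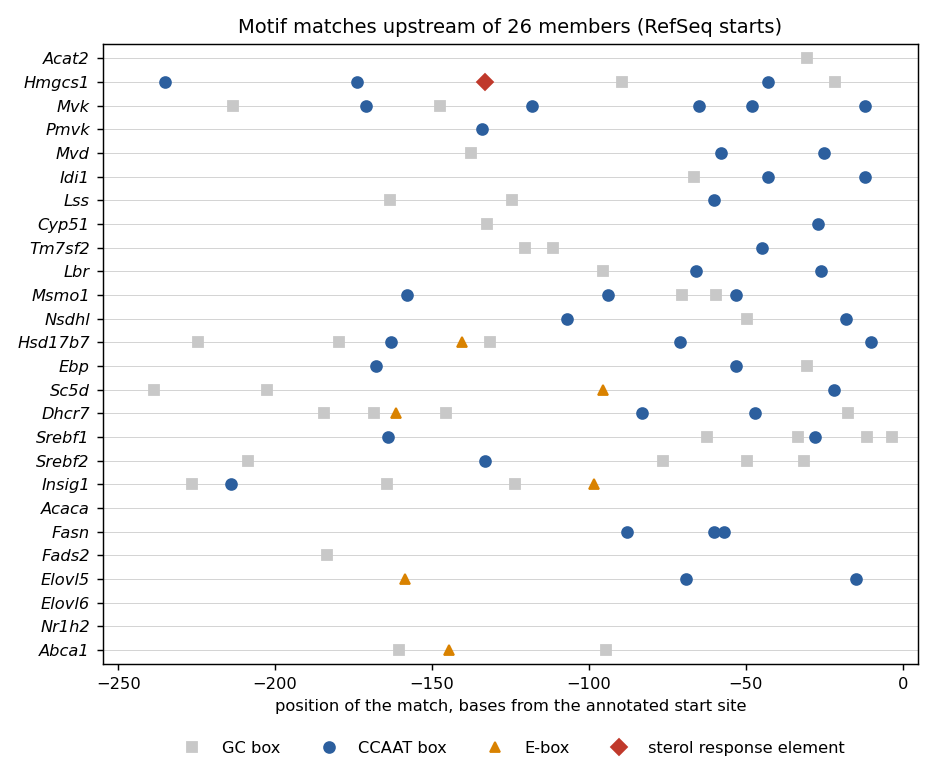
Positions of the 4 motifs in the 250 bases before the annotated start for the 26 genes with a promoter, in bases from the start. Genes with several start sites have the matches of all their starts overlaid, and CCAAT boxes appear in 20 of the 26 rows.

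None of the 7 enzymes of the mevalonate arm was called, where 39.4% of all genes tested were. A negative log2 difference was found in 6 of the 7, with a median of -0.17, and in 43.3% of all genes tested. Their summed level was 40.26, 39.95 and 37.38 FPKM in the MWA+PBS samples and 34.53, 35.54 and 36.7 FPKM in the MWA+2DG samples, which did not overlap. Hmgcs1, which makes HMG-CoA, was 9.14, 9.33 and 9.16 FPKM in the MWA+PBS samples and 9.39, 9.55 and 9.53 FPKM in the MWA+2DG samples. Its values were close in all samples, with a log2 difference of 0.04 and an interval from -0.08 to 0.16 (limma adjusted p = 0.58). Mvd, the mevalonate diphosphate decarboxylase, was 7.45, 6.94 and 7.03 FPKM in the MWA+PBS samples and 6.18, 6.69 and 5.67 FPKM in the MWA+2DG samples. The groups did not overlap, but the log2 difference of -0.18 did not pass (limma adjusted p = 0.0807), while under median ratio scaling it did (limma adjusted p = 0.0464).

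The other 5 enzymes of the arm overlapped between groups or missed the threshold. Acat2, the cytosolic thiolase that opens the route, had a log2 difference of -0.18, and Mvk and Pmvk, the kinases of mevalonate, had -0.08 and -0.07. Idi1, the isopentenyl diphosphate isomerase, and Fdps, the farnesyl diphosphate synthase, had -0.17 and -0.25, the latter with an interval from -0.61 to 0.10. Fdps moved to -0.42 without MWA+PBS sample 3 (limma adjusted p = 0.0262) and to -0.15 without MWA+PBS sample 2 (limma adjusted p = 0.481). Its exons overlap those of Gm43738, at a mean of 0.923 FPKM in the MWA+PBS samples and listed at 0 in the MWA+2DG samples, on the same strand over 1124 bases, so its reads could be shared. Acat2 shares 1477 bases at 97.7% identity with Acat3, at 0.72 FPKM on average, and 445 bases at 98.7% with Tcp1, at 53.4 FPKM in the MWA+PBS samples and 38.5 FPKM in the MWA+2DG samples, and Idi1 shares 684 bases with Gm13502, at 1.7 FPKM, so these levels are uncertain.

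The 9 uncalled enzymes from squalene to cholesterol lay between -0.22 and 0.11. Cyp51, the lanosterol demethylase, was 4.32, 4.65 and 3.87 FPKM in the MWA+PBS samples and 3.28, 3.67 and 3.64 FPKM in the MWA+2DG samples. It did not overlap between groups, and its log2 difference of -0.22 had an interval from -0.41 to -0.03 (limma adjusted p = 0.0679). It passed under median ratio scaling (limma adjusted p = 0.0327) and quantile normalization (limma adjusted p = 0.0381). Upstream of it, Fdft1, squalene synthase, and Lss, lanosterol synthase, both had 0.11, and Sqle, squalene epoxidase, had -0.18 with an interval from -0.48 to 0.11. Downstream, Tm7sf2 and Lbr, the sterol reductases of the endoplasmic reticulum and the nuclear envelope, had -0.17 and -0.01, and Nsdhl, Ebp and Dhcr7, the dehydrogenase, isomerase and final reductase, had -0.09, 0.02 and -0.01. Lbr was the most abundant of the 34 genes by its mean over the 6 samples, at 54.47, 53.43 and 58.84 FPKM in the MWA+PBS samples and 52.87, 57.81 and 54.88 FPKM in the MWA+2DG samples. Fdft1 overlaps exons of Ctsb on the opposite strand over 774 bases, Ctsb being at 133.0 FPKM in the MWA+PBS samples and 32.2 FPKM in the MWA+2DG samples, and Tm7sf2 overlaps Vps51 on its own strand over 532 bases. The use of strand in counting is not stated, so reads of these overlaps could be shared.

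Of the 4 control and transfer genes, Srebf2 was called lower. Srebf2 (ENSMUSG00000022463), which encodes SREBP2, the activator of sterol genes, was 25.51, 22.63 and 26.59 FPKM in the MWA+PBS samples and 19.83, 19.87 and 20.17 FPKM in the MWA+2DG samples. The MWA+2DG samples were close to each other and below all MWA+PBS samples, with a ratio of means of 0.801 and a log2 difference of -0.30 ± 0.07 (limma adjusted p = 0.00999). Srebf1, which encodes the SREBP1 forms that favour fatty acid genes, was 14.44, 12.16 and 15.16 FPKM in the MWA+PBS samples and 15.37, 15.32 and 16.04 FPKM in the MWA+2DG samples. The MWA+2DG samples were all slightly higher, but the log2 difference of 0.16 had an interval from -0.04 to 0.35 (limma adjusted p = 0.17). It was -0.19 under T lineage scaling, which subtracts the same amount from every gene and moved the median of all genes to -0.30. The ratio of Srebf2 to Srebf1 was 1.77, 1.86 and 1.75 in MWA+PBS against 1.29, 1.3 and 1.26 in MWA+2DG, without overlap. Insig1, which holds SREBP in the endoplasmic reticulum, had a log2 difference of -0.10, and Stard4, a cytosolic sterol carrier, had 0.04, and neither passed.

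Of the cholesterol exporters Abca1 and Abcg1, Abca1 was called lower and Abcg1 was not called. Abca1 (ENSMUSG00000015243), the transporter that loads cholesterol onto apolipoproteins, was 6.77, 6.34 and 6.57 FPKM in the MWA+PBS samples and 4.89, 5.18 and 4.6 FPKM in the MWA+2DG samples. The groups were well separated, with a ratio of means of 0.745 and a log2 difference of -0.36 ± 0.07 (limma adjusted p = 0.00419). Abcg1, the transporter that loads cholesterol onto high-density lipoprotein, was 16.6, 15.16 and 18.15 FPKM in the MWA+PBS samples and 16.21, 16.09 and 15.75 FPKM in the MWA+2DG samples, with overlapping groups and a log2 difference of -0.05 (limma adjusted p = 0.62). Nr1h2, which encodes LXR beta, was 26.44, 23.29 and 26.83 FPKM in the MWA+PBS samples and 24.96, 25.83 and 25.83 FPKM in the MWA+2DG samples, and its log2 difference of 0.00 had an interval from -0.15 to 0.16. The partner receptor Nr1h3, LXR alpha, which is not among the 34 and is known to be high in macrophages, was much lower, so that the ratio of Nr1h2 to Nr1h3 was 3.66, 3.66 and 4.14 in MWA+PBS and 14.0, 21.7 and 20.2 in MWA+2DG.

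A further list of 62 genes of sterol and fatty acid metabolism was set beside the 34. Of the 54 that passed the filter, 7 were higher, 16 lower and 31 not called (42.6% called, against 39.4% of all genes), with a median log2 difference of -0.03. In sterol synthesis and uptake 45.5% of 11 genes were called, against 39.4% of all genes tested (22.3% higher and 17.1% lower). Of the 11, 1 was higher, Ggps1, the geranylgeranyl diphosphate synthase (log2 difference 0.33, limma adjusted p = 0.00657, but -0.02 under T lineage scaling). The 4 lower ones included Tmem97, a sterol-regulated membrane protein, at -0.80 and Dhdds, a dolichol synthase subunit, at -0.33, though Dhdds was not called without MWA+PBS sample 1 or 3 or MWA+2DG sample 4 or 5.

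Of the 9 genes of the SREBP processing machinery 2 were higher and 3 lower (55.6% called, against 39.4% of all genes tested). Rnf145, a ubiquitin ligase of the endoplasmic reticulum, was higher by 0.59 on the log2 scale and the protease Mbtps1 by 0.18, while Erlin1 was at -0.68, Erlin2 at -0.56 and Scap, the SREBP escort, at -0.19. Neither Mbtps1 nor Scap passed the study's rule, Mbtps1 was not called in any of the 6 fits that left out 1 sample and was at -0.17 under T lineage scaling, and Scap was called in such a fit only without MWA+PBS sample 2. In fatty acid supply, elongation and activation 33.3% of 18 tested genes were called, against 39.4% of all genes. Of these 18 genes 3 were higher (Oxsm 0.66, Elovl7 0.65 and Hacd3 0.41, the last not called under T lineage scaling, at 0.07) and 3 lower (Acsl3 -0.82, Hsd17b12 -0.49 and Lpin1 -0.43). These hold an elongase and the mitochondrial synthase Oxsm on the higher side and the acyl-CoA synthetase Acsl3 on the lower side.

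Sterol storage, transport and LXR targets gave 1 higher and 6 lower genes of 16 tested. This was 43.8% called, against 39.4% of all genes tested, where 22.3% were higher and 17.1% lower. Mylip, a ubiquitin ligase induced by LXR, was higher by 0.38, but was not called under T lineage scaling, at 0.04. That scaling subtracts the same amount from every gene, so higher genes lose size under it by construction. It also moved the median of all genes to -0.30. It therefore cannot test whether Ggps1, Mbtps1, Hacd3 and Mylip lie above that median. The lower ones included Apoe, an apolipoprotein abundant in macrophages, from a mean of 151.2 to 34.52 FPKM (log2 difference -2.10, limma adjusted p = 1.1e-06), Nr1h3 at -1.68 and Rxra, the dimer partner of LXR, at -1.24. The macrophage marker sum was 6.85-fold lower in the same samples, and its part in these differences was not tested.

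The 7 lower genes kept their direction and their call in each of the following alternatives in which they were tested. These were another pseudocount, other filters, quantile normalization, median ratio scaling, a fit without a trend, and each sample left out in turn. The scaling to T lineage expression, which lowers every log2 difference and so cannot test lower genes, moved the median of all genes to -0.30 and the share of higher genes among those called from 56.5% to 8.39%, and 29 of the 34 genes were then called, 1 higher (Scd1) and 28 lower, where 62.6% of all genes were.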

How the data were processed

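Poly(A) RNA of splenic CD8+ T cells, 3 samples of MWA+PBS and 3 of MWA+2DG, had been made into strand-marked libraries with molecular identifiers and sequenced in pairs. The deposited values are FPKM per gene, 1 file per sample. The submitters' processing notes name cutadapt 1.9, HISAT2 2.0.4, UMI-tools, StringTie 1.3.4d and the build mm9, and the study's methods name fastp, HISAT2, StringTie and ballgown. The sources used here give neither the annotation release nor the strand setting. FPKM shares out a library's total, so a gene that takes more of it lowers the others. No common step was found in FPKM times transcript length, so whole reads could not be recovered, depth stayed unknown, counting intervals could not be made, and replicates could not be compared with sampling noise.

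Symbols were found for 28689 of 28773 gene IDs. Groups came from the sample labels. The test used log2(FPKM + 1), genes with a mean of at least 1 FPKM, and limma 3.58.1 in R 4.3.3 (lmFit, eBayes with a trend) as a two-sided comparison of MWA+2DG with MWA+PBS, with no covariates and Benjamini-Hochberg adjustment over 12444 genes. The procedure was tested on simulated data. The text names all 34 genes, up to 3 genes with the smallest P in each direction in each further pathway list, and the counts, medians and summed levels of the marker lists. Alternatives were a pseudocount of 0.1, no filter, a mean of at least 5 FPKM, quantile normalization, median ratio scaling, scaling to the mean of the T lineage genes, a fit without a trend, and each sample left out. Members and lists were chosen with earlier results of these data known. The erythroid marker Ahsp was not matched. Some genes of the lists are counted but not reported here by name. Promoters came from RefSeq on GRCm38.p6, while the notes name mm9, so no coordinates were joined to the files. Shared transcript stretches were found with BLAST 2.17.0 at 95% identity or more over at least 150 bases of GENCODE transcripts.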

Additional observations from a re-analysis of the deposited data

How the results depend on the processing

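Over the 6 fits that left out 1 sample, the number of all genes called ran from 3706 to 5195, of the 34 genes from 8 to 11, of the 34 by the study's rule from 10 to 12 and of the other pathway genes from 18 to 25. Msmo1, Hsd17b7 or Sc5d were the genes lost, and without MWA+PBS sample 1, MWA+PBS sample 3 or MWA+2DG sample 6 none of them was called, while Hsd17b7 was also lost without MWA+PBS sample 2 and, with Sc5d, without MWA+2DG sample 5. Fasn was gained without MWA+PBS sample 2, Cyp51 and Fdps without MWA+PBS sample 3, and Acat2 without MWA+2DG sample 6. Genes near 0 changed sign in these fits, with log2 differences from -0.129 to 0.0318 for Pmvk, -0.0432 to 0.0312 for Lbr, -0.0116 to 0.0648 for Ebp, -0.109 to 0.0545 for Dhcr7, -0.0196 to 0.0888 for Stard4, -0.0585 to 0.0397 for Nr1h2 and -0.11 to 0.0129 for Abcg1. With a mean of at least 5 FPKM, which kept 7313 genes and 17 of the 34, 2951 genes were called, 5 of the 34 by either rule and 14 of the other pathway genes. Without a filter Hsd17b7 and Sc5d were no longer called.

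Scaling to T lineage expression called 7794 genes, 29 of the 34 (28 by the study's rule) and 39 of the other pathway genes, since it subtracts 0.3425 from every log2 difference. It reversed Hmgcs1 (-0.303), Fdft1 (-0.23), Lss (-0.236), Msmo1 (-0.00907), Hsd17b7 (-0.0353), Ebp (-0.321), Sc5d (-0.0342), Srebf1 (-0.185), Stard4 (-0.298) and Nr1h2 (-0.339). Median ratio scaling reversed Hmgcs1 (-0.00702), Ebp (-0.0246) and Nr1h2 (-0.0455), no longer called Hsd17b7, and called Cyp51 and Mvd lower. Quantile normalization called Cyp51 lower and reversed Lbr (0.0129), Ebp (-0.0052) and Nr1h2 (-0.0052). The pseudocount of 0.1 and the fit without a trend changed no call among the 34. No paired analysis was possible because the labels number the MWA+PBS samples 1 to 3 and the MWA+2DG samples 4 to 6, so the groups share no number. With 3 samples a group and unknown depth, small differences of genes near 1 FPKM remain poorly resolved.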

Other observations

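Relatives of the 34 genes that share their symbol roots (Scd, Fads, Elovl, Insig, Srebf, Nr1h, Abca, Abcg, Stard, Hmgcs and Dhcr) and stood in no list numbered 32, of which 9 passed the filter. None was called higher, where 22.3% of all genes tested were. Beside Abca9, 4 were called lower, where 17.1% of all genes tested were, and 4 were not called. Relatives under the filter were not tested. Abcg3, a transporter relative, had a mean of 12.8 FPKM in the MWA+PBS samples and 6.39 FPKM in the MWA+2DG samples, a log2 difference of -0.90 (limma adjusted p = 8.78e-05). Abca9 had means of 2.26 and 0.513 FPKM, and since it passed the filter only through MWA+PBS, where it is high, its log2 difference of -1.11 is given with no test. The lipid transfer genes Stard5 and Stard10 were at -0.60 and -0.44, and Abca3 was at -0.20. Those not called included Abca2 at 0.09, Abca7 at 0.10 and Stard7 at -0.03. The further stearoyl-CoA desaturases Scd3 and Scd4 stayed under the filter, at means of 0.557 and 0.473 FPKM in the MWA+PBS samples and 0.417 and 0.383 FPKM in the MWA+2DG samples.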
